A study of Homo sapiens with 8 samples.

Results

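The interferon regulatory factor (IRF) genes encode the transcription factors that switch on interferon genes and answer to interferons. The 8 genes described here, IRF1, IRF2, IRF3, IRF4, IRF5, IRF7, IRF8 and IRF9, were taken by symbol from a table of 25168 genes, whatever their values. RNA was sequenced from KG1a, an established human acute myeloid leukemia line of immature CD34-positive phenotype, after 48 h with 5 µM TAK-981, with 1 µM venetoclax, with both drugs (the combination) or with the DMSO vehicle. TAK-981 blocks the SUMO-activating enzyme, so that cells can no longer attach the small modifier SUMO to their proteins, and venetoclax blocks the survival protein BCL2. Each of the 4 groups held 2 libraries. All groups share the line, so every value is from 1 cell line, and the labels do not state whether replicates were separate cultures. If they were not, the p-values reflect technical spread alone.

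All IRF proteins bind DNA through a related domain that reads repeats of GAAA. IRF3 and IRF7 wait in the cytoplasm until a sensor of viral RNA or of stray DNA has them phosphorylated, and then start transcription of the type I interferon genes; IRF5 acts downstream of Toll-like receptors. Interferon in turn acts through the JAK kinases to assemble ISGF3, a complex that holds STAT2 and IRF9 and drives most genes induced by type I interferon. IRF1 is induced by interferon gamma and activates antigen presentation genes, and IRF2 competes with it for the same sites. IRF4 and IRF8 mainly direct lymphoid and myeloid differentiation. These data measure RNA, and neither the phosphorylation nor the SUMO state of any IRF protein can be read from them.

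The RefSeq promoter table (GRCh38.p14) had windows for 5 of the 8 genes, 9 windows in all, because IRF5 has 4 and IRF8 has 2. The 250 bases upstream of each start were searched on both strands for the core of the IRF element (GAAA repeated after any 2 bases), the interferon gamma element known as GAS (TTCNNNGAA, which reads alike on both strands) and the SP1 box (GGGCGG). The GAS letters occurred once in the IRF1 window, beginning 124 bases upstream of the start, and once in the IRF9 window, beginning 63 bases upstream. The same letters occurred in 6.56% of all 34943 promoter windows. The IRF element core occurred in 0 of the 9 windows and in 3.02% of all windows, and the SP1 box in 4 of the 9 windows, including IRF1 with 5 matches, none of which overlapped its GAS letters, and in 42.5% of all. A match of letters is a description and does not show binding. The stretches around both GAS matches are shown because IRF1 and IRF9 are described below. Each is written 5′ to 3′ on the strand of its gene with the GAS letters in capitals, IRF1 at chr5:132490804-132491003 (minus strand) and IRF9 at chr14:24161192-24161221 (plus strand).
IRF1: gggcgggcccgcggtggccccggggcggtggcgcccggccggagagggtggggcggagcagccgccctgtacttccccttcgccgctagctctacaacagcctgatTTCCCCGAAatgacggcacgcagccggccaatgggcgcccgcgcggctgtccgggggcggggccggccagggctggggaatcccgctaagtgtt
IRF9: accacgtgatTTCTGGGAAaaggccctccc

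The libraries held 13204588 to 26304900 counts. The venetoclax replicates stood further apart than those of any other group: over 9858 genes, their median absolute difference was 0.26 on the log2 scale, against 0.09 to 0.10 in the other 3 groups. Replicates 1 and 2 held 14667378 and 26304900 counts with venetoclax, and 20636292 and 13204588 with the combination, where the difference was 0.10. The part of depth in these differences was not tested. CD34, the stem cell antigen that defines the line's phenotype, was between 952 and 1519 CPM (TMM-scaled counts per 1000000, the unit of every level below unless RPKM is named) in every library, while FLT3 had at most 2 counts. Of 6 tested markers of the line, 3 rose with TAK-981, 1 rose with venetoclax, and 2 rose and 1 fell with the combination, each against vehicle. Of all tested genes, 12.2%, 20.8% and 27.9% passed in these 3 comparisons, at an adjusted p under 0.05 in edgeR. CD33, a myeloid antigen, had 39 and 41 counts with TAK-981, 5 and 8 with venetoclax, 33 and 26 with the combination and 10 and 9 with vehicle, 4.65-fold and 4.06-fold higher with TAK-981 and the combination than with vehicle (adjusted p = 0.00463 and 0.00377 in edgeR). SPN rose in the same 2 comparisons, by 1.38-fold and 1.33-fold (adjusted p = 0.0255 and 0.0224), CD34 rose with venetoclax by 1.40-fold (adjusted p = 0.0323), and PTPRC, the common leukocyte antigen, was 1.85-fold lower with the combination (adjusted p = 0.00303). MPO had 11 and 12 counts with TAK-981 and was called (adjusted p = 0.0142), with 3 and 3 with the combination and 0 in the venetoclax and vehicle libraries. With any 1 vehicle or TAK-981 library left out, 0 or 1 of these markers rose with TAK-981, 0 with venetoclax and 1 with the combination. Markers of other cell types were low in sum: B cell markers reached 1.53 CPM, monocyte markers 0.777 CPM and erythroid markers 0.146 CPM, with 4 of 5 erythroid markers at 0 counts. The B cell sum was 0.687 to 1.44 CPM with TAK-981, 0.228 to 0.390 with venetoclax, 0.868 to 1.53 with the combination and 0.171 to 0.391 with vehicle, and that of 6 stromal and epithelial genes, 3 of them at 0, was 0.481 to 0.558, 0.533 to 0.818, 1.28 to 1.60 and 0.341 to 0.391 CPM in the same order. The T cell list summed to 45.6 to 46.8 CPM with TAK-981, 30.7 to 42.6 with venetoclax, 23.9 to 27.8 with the combination and 37.3 to 50.1 with vehicle. Of its 4 genes, CD3G and CD8A had at most 7 counts in any library, so the sum was almost wholly CD3D and CD3E. Against vehicle, edgeR called CD3E lower with TAK-981 (-0.82 on the log2 scale, adjusted p = 0.0178) and with the combination (-1.27, adjusted p = 0.00137). With the combination it called CD79A of the B cell list (1.99, adjusted p = 0.0353) and COL3A1 of the stromal list (1.65, adjusted p = 0.0232) higher. These 2 genes had 3 to 23 and 4 to 24 counts per library. The part of all these markers in the results below was not tested. In bulk RNA, fewer cells of a type and less RNA per cell cannot be told apart.

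KG1a cells expressed 6 of the 8 IRF genes above the low-count filter. Per kilobase of gene model, as the mean RPKM of the 8 libraries, IRF2 (11.8) and IRF3 (11.7) stood highest and close together. Their ranges over the libraries overlapped, 10.3 to 14.5 for IRF2 and 7.64 to 17.0 for IRF3. IRF1 followed at 5.80 RPKM, with a range of 4.69 to 8.81 that reached into that of IRF3, and IRF5 at 2.96, with a range of 1.85 to 3.38 that did not meet that of IRF1. IRF9 averaged 1.13 RPKM and IRF7 0.561 RPKM, and their ranges also overlapped, at 0.665 to 1.57 and 0.203 to 0.815. The lymphoid and myeloid factors were at the bottom: IRF4 averaged 0.0361 RPKM and IRF8 0.00111 RPKM.

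Against vehicle, the combination was the treatment in which IRF genes passed the test, and those that passed were all higher: IRF1, IRF3 and IRF9. A gene was called at an adjusted p under 0.05 in edgeR's quasi-likelihood test, adjusted over the 12843 genes tested. With the combination, 3 of the 6 tested IRF genes were called higher and 0 lower, where 27.9% of all tested genes were called, 12.8% higher and 15.1% lower. With TAK-981 alone 0 of 6 were called, where 12.2% of all genes were, 5.98% higher and 6.18% lower. With venetoclax alone 0 of 6 were called, where 20.8% of all genes were, 11.4% higher and 9.44% lower. By unadjusted p in edgeR, IRF3 and IRF9 were under 0.05 in both single-drug comparisons, 2 of 6 in each. So were 3411 of the 12843 tested genes with TAK-981 and 4650 with venetoclax. DESeq2 and limma-voom also called 0 of the 6 in each. Against venetoclax alone, the combination had 2 of 6 called higher, IRF1 and IRF3 (all genes 39.6%, with 17.6% higher and 22% lower). Against TAK-981 alone it had 1 of 6, IRF3 (all genes 8.8%, with 2.76% higher and 6.03% lower). The median log2 fold change of the 6 genes was 0.17 with TAK-981, -0.02 with venetoclax and 0.61 with the combination, each against vehicle, where the medians of all tested genes lay within 0.0124 of 0. The 3 comparisons with vehicle share the same vehicle libraries and are not independent of each other.

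**Figure D1:**
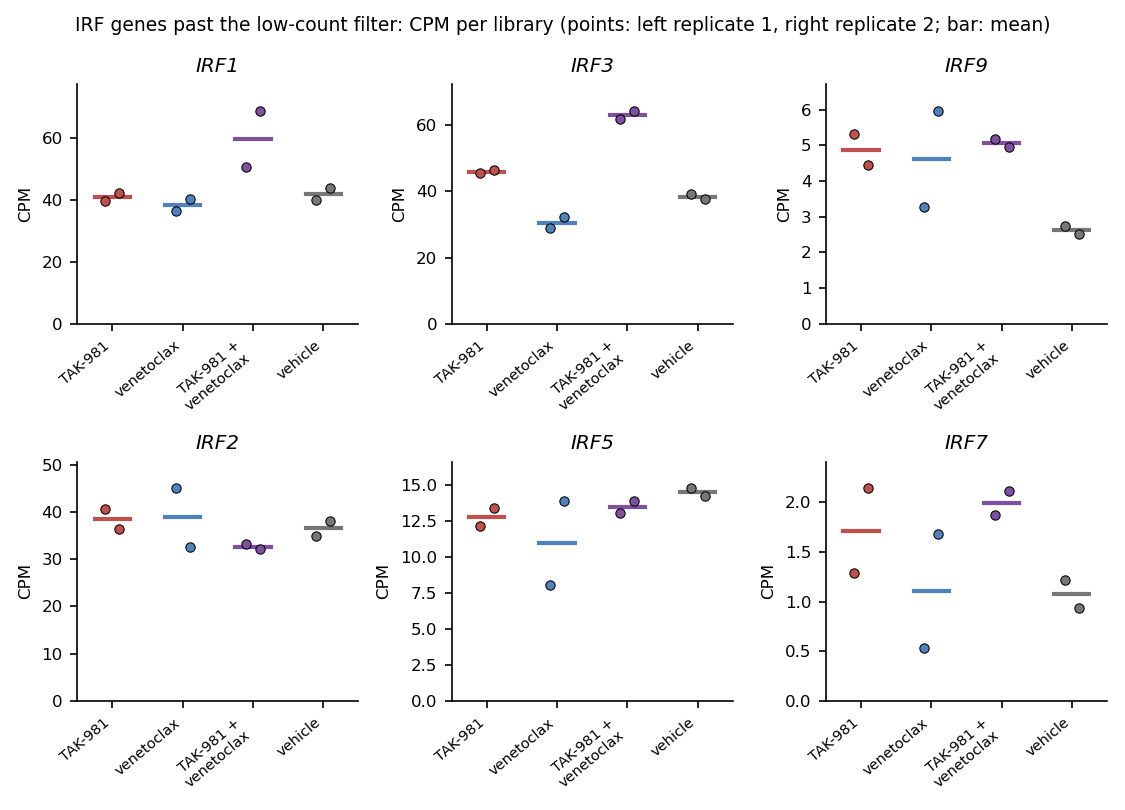
Levels in CPM of the 6 tested IRF genes in each library, from TAK-981 on the left to vehicle on the right of each panel; points are libraries, with replicate 1 left of replicate 2, and bars are group means, on axes that start at 0. In the IRF3 panel the combination libraries (61.7 and 64.3 CPM) stand above all others and the venetoclax libraries (28.9 and 32.2 CPM) below all others, while the IRF5, IRF7 and IRF9 panels show the spread between the venetoclax replicates.

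IRF3, the factor that carries RNA and DNA sensing to the interferon genes, was the 1 tested member whose 4 groups did not overlap one another, a pattern held by 14.3% of all tested genes. The gene lies at chr19:49659569-49665875 (hg38, minus strand). Its level was 45.5 and 46.4 CPM with TAK-981, 28.9 and 32.2 CPM with venetoclax, 61.7 and 64.3 CPM with the combination and 39.2 and 37.6 CPM with vehicle. The combination was highest, then TAK-981, vehicle and venetoclax. Against vehicle the combination raised IRF3 by 0.71 on the log2 scale (SE 0.10, adjusted p = 0.0014 in edgeR), 1.64-fold. Against venetoclax alone the difference was 1.04 (SE 0.11, adjusted p = 0.000286), and against TAK-981 alone 0.45 (SE 0.10, adjusted p = 0.0286). The single-drug differences from vehicle, 0.26 with TAK-981 (adjusted p = 0.143) and -0.33 with venetoclax (adjusted p = 0.0554), did not pass in edgeR. The value with TAK-981 was called without either or both venetoclax libraries (adjusted p = 0.0243 without both), and that with venetoclax was -0.41 and called without venetoclax replicate 2 (adjusted p = 0.00762). The calls of the combination against vehicle and against venetoclax held under every alternative tried, 15 and 14 of them, with log2 fold changes of 0.69 to 0.74 and 0.97 to 1.12. The call against TAK-981 was lost when 1 library of these groups or of vehicle was left out, whichever of the 6 it was, with adjusted p between 0.0691 and 0.214. The IRF3 model overlaps that of BCL2L12, on the opposite strand, by 734 bases. Whether counting used strand is not given in the sources used here, so reads in that stretch could belong to either gene; BCL2L12 averaged 14.5 CPM and was not called against vehicle with the combination (0.47, adjusted p = 0.161 in edgeR).

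IRF7, the interferon-inducible partner of IRF3, was scarce. Its counts were 30 and 40 with TAK-981, 7 and 43 with venetoclax, 41 and 29 with the combination and 28 and 22 with vehicle, or 1.29 and 2.14, 0.533 and 1.68, 1.87 and 2.11, and 1.22 and 0.939 CPM in the same order. Both combination libraries lay above both vehicle libraries, as they did in 36.8% of all tested genes, while the venetoclax replicates fell on either side of them. The differences from vehicle were 0.65 with TAK-981 (SE 0.46, adjusted p = 0.416), 0.17 with venetoclax (adjusted p = 0.825) and 0.88 with the combination (SE 0.46, adjusted p = 0.187), none called by edgeR. Without venetoclax replicate 1 the difference with the combination was called (0.87, adjusted p = 0.049). Without venetoclax replicate 2 the venetoclax difference turned to -1.01, and the combination was 1.87 above venetoclax and called (adjusted p = 0.0123), against 0.71 with all libraries. IRF7 is at chr11:612553-615999 (minus strand).

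IRF5, the member tied to Toll-like receptor signalling (chr7:128937612-128950035, plus strand), was at 12.1 and 13.4 CPM with TAK-981, 8.07 and 13.9 CPM with venetoclax, 13.0 and 13.9 CPM with the combination and 14.8 and 14.2 CPM with vehicle. All treated libraries were below both vehicle libraries, most of them by little, as was so for 8% of all tested genes. No comparison called it in edgeR; the log2 differences from vehicle were -0.19, -0.37 and -0.11 for TAK-981, venetoclax and the combination, with adjusted p of 0.663, 0.264 and 0.761. The value for venetoclax depended on 1 library: without its replicate 2 it was -0.84 (adjusted p = 0.00142), and the combination was then 0.73 above venetoclax (adjusted p = 0.00305), against 0.26 with all libraries.

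Of the 18 tested genes among 22 sensors, adaptors and kinases upstream of these 3 factors, 1 rose and 0 fell with TAK-981, 2 rose and 1 fell with venetoclax, and 4 rose and 0 fell with the combination, each against vehicle. Of all tested genes, 12.2%, 20.8% and 27.9% were called in these 3 comparisons, each more than the sensors' share. Their median log2 fold changes were 0.11, 0.08 and 0.15. TMEM173, which encodes STING, the adaptor that links cytosolic DNA sensing to IRF3, was at 114 and 113 CPM with TAK-981, 45.5 and 56.5 CPM with venetoclax, 111 and 109 CPM with the combination and 81.9 and 75.7 CPM with vehicle. It rose by 0.53 with TAK-981 (SE 0.11, adjusted p = 0.0183 in edgeR), fell by 0.62 with venetoclax (SE 0.12, adjusted p = 0.00841) and rose by 0.48 with the combination (SE 0.11, adjusted p = 0.0134). The combination stood 1.10 above venetoclax alone (adjusted p = 0.000358), a call that no alternative ended. MAVS, the mitochondrial adaptor of RNA sensing, rose by 0.38 with the combination (adjusted p = 0.0177), and so did the RNA sensors IFIH1, by 0.51 (adjusted p = 0.0207), and TLR3, by 0.57 (adjusted p = 0.0435). With venetoclax alone IFIH1 rose by 0.58 (adjusted p = 0.0178) and the Toll-like receptor adaptor MYD88 by 0.42 (adjusted p = 0.025). Against venetoclax alone, 3 of the 18 rose with the combination and 1 fell, where 39.6% of all tested genes were called, 17.6% higher and 22% lower. Beside TMEM173 and MAVS these were IKBKE, a kinase that phosphorylates IRF3 (0.66, adjusted p = 0.0226), and MB21D1, which encodes the DNA sensor cGAS and fell by 0.42 (adjusted p = 0.0148). Against TAK-981 alone edgeR called 0 of the 18, where 8.8% of all tested genes were called. Of the 18, 2 were under an unadjusted p of 0.05 in edgeR (3165 of all 12843 tested genes) and 0 were called by DESeq2 or limma-voom. Among the sensor calls named here, every one but that of TMEM173 against venetoclax was lost without at least 1 library.

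The interferon genes themselves were almost without reads. Of 21 ligand genes, 16 had 0 counts in every library and 20 stayed under 10 counts in every library; all 21 together had 45 counts in the 8 libraries, and none passed the low-count filter. IFNB1, named here after its values were seen, is the interferon beta gene and a target of IRF3. It had 1 and 0 counts with TAK-981, 1 and 12 with venetoclax, 7 and 1 with the combination and 3 and 0 with vehicle. The replicates of each group disagreed, so no difference between groups could be read. The library with 12 counts, venetoclax replicate 2, was also the one with the highest level of the interferon-induced MX1, 31.4 CPM against 4.34 CPM in venetoclax replicate 1. In every other group the library with more IFNB1 counts, replicate 1, had the lower MX1 level. MX1 was at 5.33 and 6.36 CPM with TAK-981 and 5.67 and 9.46 CPM with the combination. With vehicle it was at 3.21 and 3.24 CPM. MX1 too was named after its values were seen, and a link between the 2 genes was not tested.

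IRF9, the DNA-reading subunit of ISGF3, was higher in every treated library than in vehicle. Counts were 124 and 83 with TAK-981, 43 and 153 with venetoclax, 113 and 68 with the combination and 63 and 59 with vehicle. The corresponding levels were 5.33 and 4.44 CPM, 3.27 and 5.96 CPM, 5.16 and 4.95 CPM, and 2.74 and 2.52 CPM. All 6 treated libraries exceeded both vehicle libraries, as in 6.56% of all tested genes, and the 3 treated groups overlapped one another. IRF9 rose by 0.95 with the combination (SE 0.28, adjusted p = 0.0344 in edgeR), 1.93-fold. The values with TAK-981, 0.90 (SE 0.28, adjusted p = 0.0702), and with venetoclax, 0.86 (SE 0.28, adjusted p = 0.0592), were of similar size but did not pass; the value with venetoclax was 1.18 and called without venetoclax replicate 1 (adjusted p = 0.00141) and 0.32 without replicate 2. The combination differed from TAK-981 by 0.05 and from venetoclax by 0.09, neither called. The call with the combination was lost whenever 1 library was left out other than a venetoclax one (0.89 to 1.00, adjusted p 0.0575 to 0.175), and the TAK-981 value was called when either or both venetoclax libraries were left out (adjusted p = 0.0039 without both). The IRF9 model (chr14:24161053-24166565, plus strand) lies wholly inside the span of RNF31 on the same strand, and how reads of overlapping genes were counted is not given in the sources used here. RNF31 averaged 22.0 CPM and was not called in any of the 5 comparisons between groups (0.29 with the combination against vehicle, adjusted p = 0.295).

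STAT2, a partner of IRF9 in ISGF3, also rose with the combination. It was at 52.5 and 54.6 CPM with TAK-981, 33.1 and 46.1 CPM with venetoclax, 72.1 and 89.2 CPM with the combination and 47.5 and 40.5 CPM with vehicle. Its combination libraries were above all others, the TAK-981 libraries came next, and venetoclax overlapped vehicle. Taken one group at a time, combination libraries lay above those of vehicle, venetoclax and TAK-981 in 36.8%, 32.9% and 33.8% of all tested genes. For STAT2, the differences were as follows. It rose by 0.87 with the combination against vehicle (SE 0.17, adjusted p = 0.00543 in edgeR), a call lost without vehicle replicate 2 or combination replicate 2, and by 1.02 against venetoclax (adjusted p = 0.00226), which held under every alternative tried. Against TAK-981 alone the difference was 0.59 (SE 0.17, adjusted p = 0.0627) and was not called.

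**Figure D2:**
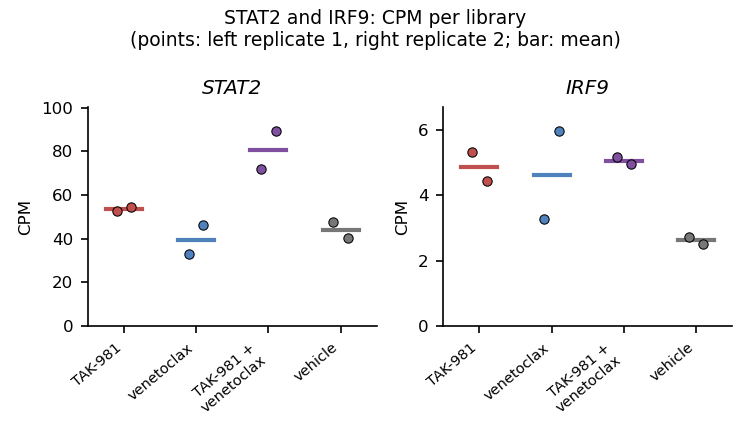
Levels in CPM of STAT2 and IRF9 in each library, from TAK-981 on the left to vehicle on the right; points are libraries (replicate 1 left), bars are means, and each axis starts at 0. The combination libraries are the highest for STAT2 (72.1 and 89.2 CPM), whereas for IRF9 the 3 treated groups overlap and all 6 treated libraries lie above vehicle.

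The list of 32 ISGF3 target genes, all of them tested, was higher with each treatment in its median, but different counts passed. With TAK-981 4 rose and 1 fell (median log2 fold change 0.31), with venetoclax 13 rose and 0 fell (median 0.53), and with the combination 12 rose and 1 fell (median 0.84), each against vehicle. Of all tested genes, 12.2%, 20.8% and 27.9% were called in these 3 comparisons, with 5.98%, 11.4% and 12.8% higher. PARP9, an interferon-induced member of the poly(ADP-ribose) polymerase family, was at 163 and 155 CPM with TAK-981, 171 and 192 CPM with venetoclax, 195 and 244 CPM with the combination and 109 and 110 CPM with vehicle. It rose in all 3, by 0.54, 0.73 and 1.00 (adjusted p = 0.0218, 0.0059 and 0.000641 in edgeR). OAS3, an activator of the antiviral RNase L, was at 59.8 and 57.7 CPM with TAK-981, 57.9 and 95.2 CPM with venetoclax, 101 and 99.8 CPM with the combination and 38.3 and 34.1 CPM with vehicle. It rose by 1.09 with venetoclax (adjusted p = 0.00768) and by 1.48 with the combination (adjusted p = 0.000954), and SAMD9L, an antiviral translation inhibitor, rose by 1.12 with the combination (adjusted p = 0.00154). Other genes of the list did otherwise. EIF2AK2, which encodes the RNA-activated kinase PKR, rose by 0.91 with venetoclax (adjusted p = 0.00145) and fell by 0.86 in the combination against venetoclax (adjusted p = 0.000402), with 205 and 189 CPM with TAK-981, 399 and 402 CPM with venetoclax, 223 and 218 CPM with the combination and 218 and 210 CPM with vehicle. CMPK2, a mitochondrial nucleotide kinase induced by interferon, fell with TAK-981 by 0.99 (adjusted p = 0.00114) and with the combination by 0.82 (adjusted p = 0.00126), and was 1.33 lower in the combination than with venetoclax alone (log2 fold change -1.33, adjusted p = 0.000162). In the combination against venetoclax 3 of the 32 rose, IFI35 among them (1.21, adjusted p = 0.0107), and 3 fell, where 39.6% of all tested genes were called. Against TAK-981 3 rose and 0 fell, where 8.8% were called. The named calls of CMPK2 and EIF2AK2, and those of PARP9, OAS3 and SAMD9L with the combination against vehicle, held under every alternative, and the other named ones were lost without at least 1 library. When libraries were left out, the counts over all tested genes moved widely, as did those of the list. The count for venetoclax moved with its libraries and those of vehicle: 28 rose without replicate 1 (median 0.79), 9 rose and 1 fell without replicate 2 (median 0.21), and 1 rose without either vehicle library or in the 4 libraries of the comparison alone. For the combination against vehicle the count higher ran from 3 without combination replicate 2 to 23 without both venetoclax libraries, a setting added after seeing the data; for TAK-981 it was 0 without either vehicle library or either TAK-981 library and 10 without one or both venetoclax libraries.

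IRF1, a factor induced by interferon gamma, was higher with the combination than in any other library. It lies at chr5:132481609-132490798 (minus strand). Its level was 39.5 and 42.2 CPM with TAK-981, 36.5 and 40.4 CPM with venetoclax, 50.7 and 68.6 CPM with the combination and 39.9 and 43.8 CPM with vehicle. The single-drug groups and vehicle overlapped, and the 2 combination libraries differed from each other by more than any pair of the other 6. Of all tested genes, 36.8% had both combination libraries above both of vehicle, 32.9% above both of venetoclax and 33.8% above both of TAK-981. The share with all of these at once was not counted. IRF1 rose by 0.51 with the combination against vehicle (SE 0.15, adjusted p = 0.0315 in edgeR), 1.42-fold, and by 0.63 against venetoclax (SE 0.15, adjusted p = 0.0104). Against TAK-981 the difference of 0.54 (SE 0.15) had an adjusted p of 0.054, and 8 of 15 alternatives called it, among them leaving out either or both venetoclax libraries. With TAK-981 alone (-0.04, adjusted p = 0.915) and with venetoclax alone (-0.12, adjusted p = 0.6) it was not called. Combination replicate 2 set the size: without it the difference from vehicle was 0.28 (adjusted p = 0.261), and without replicate 1 it was 0.70 and still called (adjusted p = 0.017). The call against vehicle was also lost without either vehicle library (0.44 and 0.58, adjusted p = 0.178 and 0.104) or either TAK-981 library (adjusted p = 0.0595 and 0.06).

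IRF2, which competes with IRF1 at shared sites (chr4:184387713-184474580, minus strand), was not called in any comparison. Its level was 40.6 and 36.5 CPM with TAK-981, 45.0 and 32.7 CPM with venetoclax, 33.2 and 32.1 CPM with the combination and 34.8 and 38.2 CPM with vehicle. Both combination libraries were below both vehicle libraries, as in 35.8% of all tested genes, with a difference of -0.16 (SE 0.16, adjusted p = 0.481 in edgeR), while the single-drug groups overlapped vehicle. Without venetoclax replicate 2, the lower of its pair, IRF2 was called higher with venetoclax (0.30, adjusted p = 0.0493) and lower in the combination than with venetoclax (-0.47, adjusted p = 0.00351). Of the corepressor IRF2BP2 and its relatives IRF2BP1 and IRF2BPL, IRF2BP1 was not called in any comparison, with 12.2 and 15.5 CPM with TAK-981, 7.99 and 14.1 CPM with venetoclax, 13.6 and 12.4 CPM with the combination and 11.7 and 11.4 CPM with vehicle. IRF2BP2 was at 161 and 165 CPM with TAK-981, 125 and 135 CPM with venetoclax, 117 and 116 CPM with the combination and 196 and 207 CPM with vehicle. It fell by 0.63 with venetoclax (adjusted p = 0.00358), by 0.79 with the combination (adjusted p = 0.000487), and by 0.48 in the combination against TAK-981 (adjusted p = 0.0146). IRF2BPL, a related protein, was at 22.7 and 26.6 CPM with TAK-981, 13.2 and 16.9 CPM with venetoclax, 32.1 and 35.9 CPM with the combination and 27.6 and 27.0 CPM with vehicle. It fell by 0.85 with venetoclax (adjusted p = 0.0077) and was 1.16 higher with the combination than with venetoclax alone (adjusted p = 0.000847). The calls of IRF2BP2 with the combination against vehicle and of IRF2BPL against venetoclax held under every alternative. That of IRF2BP2 with venetoclax was lost only in the 4 libraries of the comparison alone, and the others were lost without at least 1 library.

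Among IRF1 target genes, chiefly of MHC class I antigen presentation, only rises were called with TAK-981 and the combination against vehicle, and only falls with venetoclax. Of the 17 tested of 18 genes in this list, 2 rose and 0 fell with TAK-981 (median log2 fold change 0.20), 0 rose and 3 fell with venetoclax (median -0.31), and 8 rose and 0 fell with the combination (median 0.36), each against vehicle. Of all tested genes, 12.2% were called with TAK-981 (5.98% higher), 20.8% with venetoclax (9.44% lower) and 27.9% with the combination (12.8% higher). The list's shares called in either direction were near these with TAK-981 and with venetoclax. Against venetoclax alone 12 of the 17 rose and 0 fell with the combination (median 0.64), where 39.6% of all genes were called. Against TAK-981 alone 2 rose and 0 fell, where 8.8% were called. HLA-B, a class I heavy chain, was at 431 and 471 CPM with TAK-981, 97.8 and 112 CPM with venetoclax, 436 and 589 CPM with the combination and 187 and 216 CPM with vehicle. TAK-981 raised it by 1.16 (SE 0.15, adjusted p = 0.00205 in edgeR), venetoclax lowered it (log2 fold change -0.94, adjusted p = 0.00574), and the combination was 1.35 above vehicle (adjusted p = 0.000489) and 2.29 above venetoclax (adjusted p = 7.18e-05). HLA-E, a nonclassical class I chain, gave 0.67, -0.97 and 0.71 in the 3 comparisons with vehicle (adjusted p = 0.0119, 0.00312 and 0.00425). The HLA values are uncertain, since class I genes share near-identical sequence and the handling of such reads is not given in the sources used here. GBP1, a guanylate-binding protein typical of interferon gamma responses, was at 89.7 and 82.0 CPM with TAK-981, 74.8 and 67.2 CPM with venetoclax, 134 and 228 CPM with the combination and 57.8 and 59.5 CPM with vehicle; it rose by 1.62 with the combination (adjusted p = 0.000841), and GBP4 by 0.57 (adjusted p = 0.00709). NLRC5, the transactivator of class I genes, fell by 1.00 with venetoclax (adjusted p = 0.00348) and was 0.97 higher in the combination than with venetoclax (adjusted p = 0.00127), as was the peptide transporter TAP1 by 1.49 (adjusted p = 0.00135). TAPBP, which loads peptide, was 0.43 above TAK-981 alone in the combination (adjusted p = 0.0253). The named calls that were lost without at least 1 library were those of HLA-B with venetoclax, of HLA-E with TAK-981 and with the combination, and of GBP4 and TAPBP. For the combination against vehicle, 2 genes of the list rose without vehicle replicate 1, 5 without vehicle replicate 2 and 3 without combination replicate 2; against venetoclax the count was 6 without combination replicate 2.

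IRF4 and IRF8, the differentiation factors, were at the floor of the measurement and were not tested. IRF4 (chr6:391739-411447, plus strand) had 6 and 5 counts with TAK-981, 5 and 3 with venetoclax, 6 and 2 with the combination and 2 and 4 with vehicle. Scaled for depth, the venetoclax and combination groups overlapped vehicle. Both TAK-981 libraries (0.258 and 0.267 CPM) lay above both vehicle libraries (0.0868 and 0.171 CPM), as in 32.4% of all tested genes. The ratios of the depth-scaled sums to vehicle were 2.03 with TAK-981 (exact 95% counting interval 0.688 to 6.68), 1.60 with venetoclax (0.486 to 5.58) and 1.74 with the combination (0.529 to 6.08). All 3 intervals include 1, so no difference was detectable at this depth. IRF8 (chr16:85898803-85922609, plus strand) had 0 counts in 7 libraries and 1 count in combination replicate 1. A count of 0 allows up to 3 counts, which is 0.117 to 0.228 CPM depending on the library. Intervals and this limit cover counting error only. SPI1, which encodes PU.1, the partner that recruits IRF4 and IRF8 to composite sites, was also low, between 0.430 and 1.15 CPM.

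Of 11 genes that IRF8 is known to regulate in myeloid cells, 6 were tested. With TAK-981 edgeR called 0, with 0 under an unadjusted p of 0.05 (3411 of all 12843 tested genes) and 0 called by DESeq2 or limma-voom, while 2 fell with venetoclax and 1 fell with the combination, each against vehicle. Of all tested genes, 12.2%, 20.8% and 27.9% were called in these 3 comparisons, with 6.18%, 9.44% and 15.1% lower. CTSS, the lysosomal protease cathepsin S, fell by 0.96 with venetoclax (adjusted p = 0.0109) and by 0.82 with the combination (adjusted p = 0.0123); its level was 7.05 and 7.54 CPM with TAK-981, 4.42 and 4.29 CPM with venetoclax, 4.43 and 5.17 CPM with the combination and 7.47 and 9.39 CPM with vehicle. BCL6, a transcriptional repressor of lymphoid cells, was at 1.80 and 2.46 CPM with TAK-981, 0.609 and 0.662 CPM with venetoclax, 1.74 and 1.82 CPM with the combination and 1.61 and 2.09 CPM with vehicle. It fell by 1.52 with venetoclax (adjusted p = 0.0149) and was 1.46 higher in the combination than with venetoclax (adjusted p = 0.00999). Both falls with venetoclax were lost without either vehicle library, and that of CTSS with the combination without 3 of the libraries in turn. IRF8 itself had 0 or 1 count in every library. Among the other partners, IKZF1, the lymphoid factor Ikaros, was at 290 and 294 CPM with TAK-981, 420 and 364 CPM with venetoclax, 258 and 245 CPM with the combination and 452 and 436 CPM with vehicle. It fell by 0.60 with TAK-981 (adjusted p = 0.00689) and by 0.82 with the combination (adjusted p = 0.000784), and it was lower in the combination than with venetoclax (-0.64, adjusted p = 0.00203). BATF, which pairs with IRF4 and IRF8 on DNA, rose by 0.57 with TAK-981 (adjusted p = 0.0314), by 0.72 with the combination (adjusted p = 0.00608) and by 0.48 in the combination against venetoclax (adjusted p = 0.0271); these calls and that of IKZF1 with TAK-981 were lost without at least 1 library. Beside the 12.2%, 20.8% and 27.9% of all tested genes called against vehicle, the counts of the partners and corepressors were as follows. Of the 9 tested, STAT2 among them, 1 rose and 1 fell with TAK-981, 0 rose and 2 fell with venetoclax, and 2 rose and 2 fell with the combination. With TAK-981 0 rose when any 1 library other than a venetoclax one was left out, and with the combination 1 rose without either vehicle library and 0 without combination replicate 2.

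Receptors, JAK kinases and their feedback inhibitors, through which interferons reach IRF1 and IRF9, mostly did not pass against vehicle. Of 13 tested of 14 genes, 1 rose and 0 fell with TAK-981, 1 rose and 1 fell with venetoclax, and 3 rose and 0 fell with the combination, each against vehicle, and the median log2 fold changes were 0.09, -0.12 and -0.01. The shares called were again under the 12.2%, 20.8% and 27.9% of all tested genes. Against venetoclax alone, 4 of the 13 rose and 3 fell with the combination, where 39.6% of all tested genes were called. Against TAK-981 alone, 0 rose and 1 fell, where 8.8% were called. Feedback inhibitors were among the genes that rose. PTPN6, which encodes the phosphatase SHP-1, was at 5.58 and 4.86 CPM with TAK-981, 1.68 and 1.32 CPM with venetoclax, 4.48 and 3.93 CPM with the combination and 1.82 and 1.37 CPM with vehicle. Both groups with TAK-981 stood apart from both groups without it: the rise against vehicle was 1.71 with TAK-981 (SE 0.24, adjusted p = 0.00256 in edgeR) and 1.40 with the combination (SE 0.25, adjusted p = 0.0035), and the combination was 1.52 above venetoclax (adjusted p = 0.00234). Taken singly, these 3 separations without overlap, all upward, were seen in 32.4%, 36.8% and 32.9% of all tested genes. SOCS1, an inhibitor of JAK kinases that is also in the IRF1 target list, had 21 and 38 counts with the combination against 13 and 10 with vehicle; it rose by 1.82 (SE 0.54, adjusted p = 0.0346), a call lost without either vehicle library, either TAK-981 library or combination replicate 2 and with limma-voom, and the fitted values ran from 0.95 to 2.46. TYK2, a kinase of the type I receptor, rose by 0.44 with the combination (adjusted p = 0.0498) and by 0.70 against venetoclax (adjusted p = 0.00571). With venetoclax the receptor chain IFNGR1 fell by 0.40 (adjusted p = 0.024) and the phosphatase PTPN2 rose by 0.43 (adjusted p = 0.0333). In the combination PTPN2 was below venetoclax (-0.44, adjusted p = 0.0188) and IFNGR1 below TAK-981 (-0.50, adjusted p = 0.0188). The PTPN6 calls and that of TYK2 against venetoclax held under every alternative, and the others were lost without at least 1 library.

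**Figure D3:**
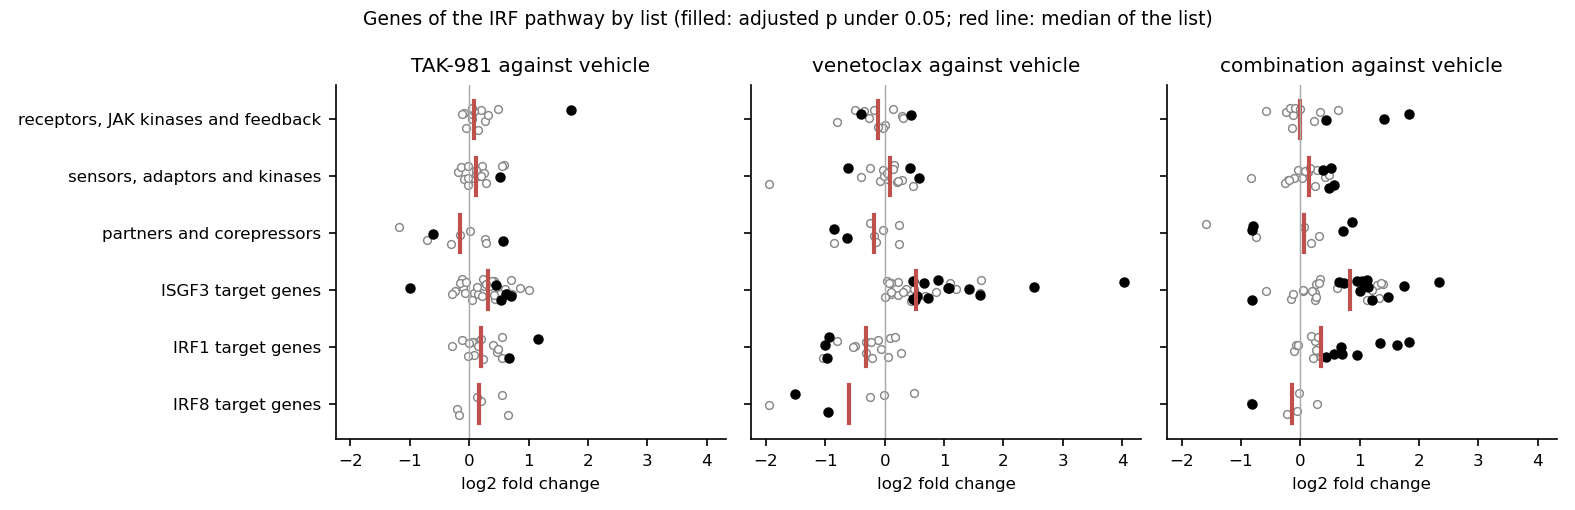
Log2 fold changes against vehicle of the tested genes in 6 lists around the IRF family, 1 point per gene, for TAK-981, venetoclax and the combination; filled points had an adjusted p under 0.05 and the red line is the list's median. The ISGF3 target median lies right of 0 in all 3 panels (0.31, 0.53 and 0.84), and the IRF1 target median lies left of 0 with venetoclax (-0.31) and right of it with TAK-981 (0.20) and the combination (0.36).

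Whether the effect of both drugs departed in either direction from the sum of their separate log2 effects was tested as the interaction. The interaction subtracts the TAK-981 effect in the absence of venetoclax from that in its presence. For IRF3 it was 0.78 (SE 0.15, adjusted p = 0.102 in edgeR) and for IRF1 0.66 (SE 0.21, adjusted p = 0.178), both positive. The venetoclax effect on IRF3 had opposite signs with and without TAK-981, with no overlap of the groups in either, as in 8.15% of all tested genes; 0 of 6 IRF genes had this for the TAK-981 effect, against 5.47% of all tested genes. For IRF9 it was -0.81 (SE 0.39, adjusted p = 0.295), for IRF2 -0.32 (adjusted p = 0.441), for IRF5 0.45 (adjusted p = 0.452) and for IRF7 0.06 (adjusted p = 0.972). edgeR called 0 of the 6 IRF genes, where 4 of all tested genes were called (0.0311%). At an unadjusted p under 0.05 there were 2 IRF genes, IRF1 and IRF3, and 2427 of all 12843 tested genes. DESeq2 called 1, IRF3 (0.80, adjusted p = 0.00333), and limma-voom called 0. Leaving out a venetoclax library changed this count: without replicate 1 IRF3 (0.71, adjusted p = 0.00778) and IRF9 (-1.13, adjusted p = 0.0406) were called, and without replicate 2 IRF1, IRF2, IRF3 and IRF5 were.

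**Figure D4:**
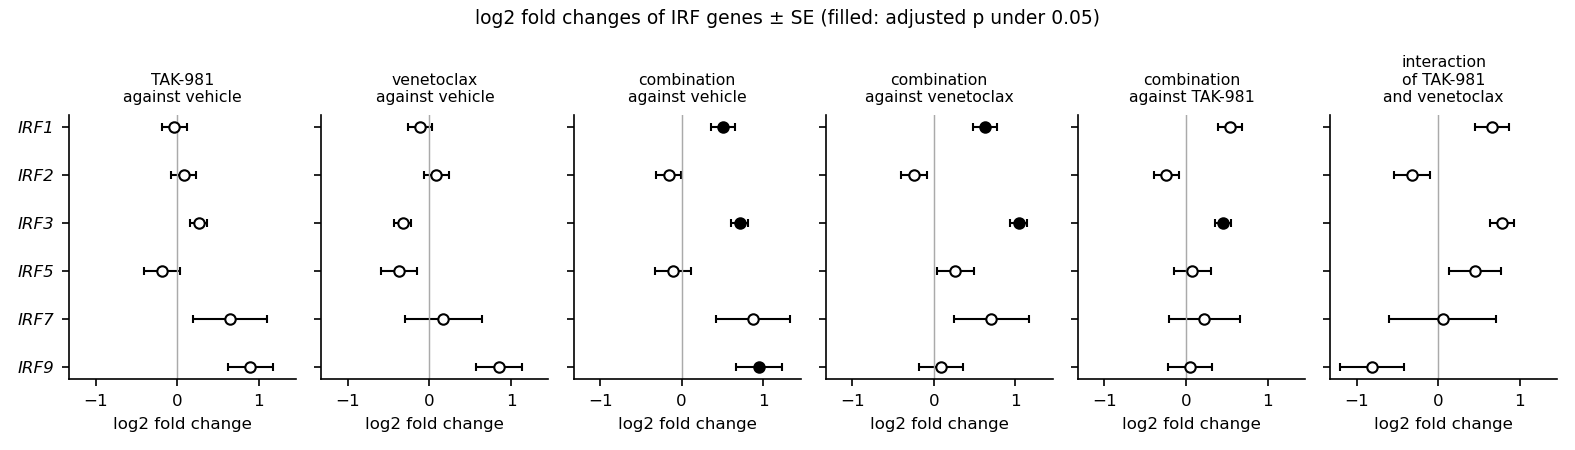
Log2 fold changes of the 6 tested IRF genes in the 5 comparisons between groups and in the interaction; points are the estimates, bars are ± 1 SE, and filled points had an adjusted p under 0.05. IRF3 lies right of 0 in the 3 panels of the combination (0.71, 1.04 and 0.45), all filled, and left of 0 with venetoclax alone (-0.33, open).

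The genes most like each tested IRF gene were found by Pearson's correlation of log2 CPM over the 8 libraries among 9446 tested genes of at least 5 CPM. These correlations are descriptions over libraries that share groups and depth. IRF3 was most like P3H1 (0.988), VPS39 (0.986) and BMF (0.986), the last a BH3-only protein that binds BCL2 relatives. IRF1 was most like PARP11 (0.976), ITGB3 (0.968) and DCUN1D3 (0.967), and IRF9 most like RAB35 (0.954), TMEM9B (0.953) and ARF4 (0.951). IRF2 was most like CLEC2B (0.987), TAB2 (0.973) and SHOC2 (0.972), IRF5 most like WDR18 (0.992), IVD (0.981) and SLC25A22 (0.978), and IRF7 most like EPN1 (0.986), STUB1 (0.975) and MAD2L1BP (0.972). None of these genes belongs to the lists described above.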

How the data were processed

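The authors deposited read counts per gene, whole numbers not normalized, for 8 libraries with hg38 coordinates and gene lengths, per the file headers. Reads were single, 51 cycles, per the labels' protocols; the labels name a SMART-Seq kit and the series text Ribo-Zero depletion. The submitters' processing notes list edgeR, HTSeq 0.11.1, STAR 2.6.0 and Trimmomatic but no roles.

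Counts were tested with edgeR 4.0.16 (R 4.3.3, limma 3.58.1): TMM scaling, filterByExpr (12843 genes kept), robust quasi-likelihood fits over all 8 libraries, two-sided tests and Benjamini-Hochberg adjustment. Fold changes are fitted log2 values. Each SE is approximate, the log2 fold change divided by the root of F. RPKM is CPM over the deposited length. On simulated counts for TAK-981 against vehicle (12843 genes) 48 of 100 changes of 1.5-fold and 87 of 100 of 2-fold were found, with 11 false calls. The changed genes were drawn from those averaging at least 5 CPM and were changed in the TAK-981 libraries alone. These rates therefore do not cover IRF7 and IRF9, which averaged 1.47 and 4.30 CPM, or the other comparisons.

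Members, lists and alternatives were chosen with earlier results of these data known. Up to 4 called genes per list and comparison with the smallest p are named, and the 3 genes most like each tested member. CIITA, SOCS1, TLR9 and USP18 stand in more than 1 list. A further family gene and 2 list genes are not reported here, and the list counts leave them out. Alternatives were DESeq2's size factors, no low-count filter, a replicate block, DESeq2 1.42.0, limma-voom, the 4 libraries of a comparison alone and each library left out.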

Additional observations from a re-analysis of the deposited data

Results flagged for a closer look

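In each gene named here, a drug's effect had opposite signs with and without the other drug, and the pair of groups compared in each of these effects did not overlap. Of all tested genes, 8.15% had this pattern for the venetoclax effect and 5.47% for the TAK-981 effect. In edgeR's quasi-likelihood test none of the differences between the effects, the interaction, passed at an adjusted p under 0.05.

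The effect of venetoclax on IRF3 was 0.45 on the log2 scale with TAK-981 and -0.33 without it, an interaction of 0.78 (SE 0.15, adjusted p = 0.102). IRF2BPL, which encodes a relative of the IRF2 corepressors, had the largest ratio of interaction to error of this group: 1.31 (SE 0.21, adjusted p = 0.0903), with venetoclax effects of 0.46 with and -0.85 without TAK-981, and TAK-981 effects of 1.16 with and -0.15 without venetoclax. For the peptide transporter TAP1 the venetoclax effect was 0.40 with and -0.54 without TAK-981 (interaction 0.93, adjusted p = 0.183). For SOCS1 it was 1.34 with and -0.80 without (interaction 2.14, adjusted p = 0.242), from 3 to 38 counts per library. The interferon-induced IFI44 went the other way under both drugs, with an interaction of -0.68 (adjusted p = 0.132), venetoclax effects of -0.20 with and 0.47 without TAK-981, and TAK-981 effects of -0.23 with and 0.45 without venetoclax. For SAMD9 the TAK-981 effect was -0.20 with and 0.28 without venetoclax (interaction -0.48, adjusted p = 0.166). The wide spread between the venetoclax replicates enters every one of these interactions, and its part in them was not tested.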

How the results depend on the processing

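The IRF3 calls of the combination against vehicle and against venetoclax held under all alternatives. The number of IRF genes called moved elsewhere. With TAK-981 it was 1 without the filter, and 2 in the 4 libraries alone or without both venetoclax libraries (added after seeing the data). With venetoclax it was 1 with DESeq2's size factors (IRF3) and 1 without the filter (IRF9). For the combination against TAK-981 it was 2 under each of no filter, the replicate block, DESeq2, the 4 libraries alone and without both venetoclax libraries, and for the interaction 2 without the filter and 1 with DESeq2. Leaving out 1 library gave 0 to 2, 0 to 3, 1 to 4, 1 to 5, 0 to 2 and 0 to 4 IRF genes for TAK-981, venetoclax and the combination against vehicle, the combination against venetoclax and against TAK-981, and the interaction.

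Over all genes, in the same order, leaving out 1 library gave 341 to 3863, 258 to 5365, 1424 to 6121, 2369 to 7185, 41 to 3683 and 0 to 4436 calls, against 1562, 2676, 3582, 5086, 1130 and 4 with all libraries. The 4 libraries alone gave 4143, 205 (32.2% higher, against 54.7%), 5775, 2553 and 3745 in the 5 comparisons between groups; without both venetoclax libraries there were 3860 with TAK-981, 6112 with the combination and 3671 for the combination against TAK-981, which had 1875 without the filter. The interaction had 8 with DESeq2's size factors (87.5% higher, against 100%), 1098 without the filter, 24 with the replicate block, 296 with DESeq2 and 9 with limma-voom.

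Fits without 1 library turned the sign of 9 values that were not called: IRF1 (-0.094 to 0.032) and IRF2 (-0.0020 to 0.16) with TAK-981, IRF2 (-0.16 to 0.30) and IRF7 (-1.01 to 0.64) with venetoclax, IRF5 (-0.051 to 0.73) and IRF9 (-0.23 to 0.62) for the combination against venetoclax, IRF7 (-0.11 to 0.61) and IRF9 (-0.085 to 0.19) for the combination against TAK-981, and IRF7 (-0.41 to 1.22) in the interaction. Of 74 calls of named list genes, 28 held under every alternative and 45 were lost without some library. The cause was not tested.

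Replicates of the same number deviated together, at a correlation over 0.1, in 4 of 6 pairs of groups (-0.04 to 0.38 over all 6). As this was not so in every pair and no label ties the numbers to a shared batch, they were not taken to pair the libraries; the replicate block gave 1739, 2994, 3798, 5306 and 1253 calls in the 5 comparisons, and with it TYK2 was not called for the combination against vehicle (adjusted p = 0.0502). Depth limits IRF4, IRF7 and IRF8.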
